A study of Homo sapiens with 6 samples.

Results

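The histone genes of H226 cells were taken as all names of the deposited count table that start with HIST1H, HIST2H, HIST3H, HIST4H, H2AF, H1F or H3F3. This rule found 46 of the 17222 names. Of these, 29 belonged to the replication-dependent clusters, 23 to HIST1 and 6 to HIST2, and no name started with HIST3H or HIST4H. The other 17 were replacement histone names, of which 11 are coding genes, 5 are processed pseudogenes and 1, H1FX-AS1, is an antisense RNA. The replication-dependent names held 28 coding genes and 1 pseudogene, HIST1H3PS1.

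H226 cells are an established line from a human squamous lung carcinoma. Cells were transiently transfected with ASO_LINC, an antisense oligonucleotide against the long noncoding RNA SWINGN, listed in the labels as LINC00565, or with the control oligonucleotide ASO_CTRL. They were collected after 48 h, and the RNA of 3 replicates of each group was sequenced. The target RNA was not analysed here, and its depletion was therefore not checked. Every ASO_LINC library comes from 1 oligonucleotide in 1 cell line.

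Histones are the proteins around which DNA is wound. The core histones H2A, H2B, H3 and H4 form the nucleosome, and the linker histone H1 binds the DNA that enters and leaves it. Replication-dependent histone genes lie in clusters, are expressed mainly in S phase, and give mRNAs that normally end at a conserved stem-loop without a poly(A) tail. Replacement histone genes lie outside the clusters and are expressed throughout the cell cycle, and their mRNAs carry a poly(A) tail. The first cDNA strand of these libraries was made with dT oligonucleotides, which bind poly(A), so the reads on a replication-dependent gene do not measure all of its mRNA.

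The stem-loop set the classes apart by sequence in the annotation of GRCh37, with exceptions in each. Its consensus was searched in the 150 bases after the last coding codon, stop codon included, of the longest annotated coding transcript of each gene. In these windows it was present in 25 of 26 replication-dependent coding genes (96.2%). It was found in 1 of 11 replacement genes (9.09%) and in 2 of 12144 other coding genes of the table (0.0165%). HIST1H2BN was the replication-dependent gene without it in the searched transcript, which is spliced from 3 exons. Other transcripts of HIST1H2BN were not searched, so the stem-loop may be present in them. H2AFX was the replacement gene with it. The stem-loops of tested replication-dependent genes from the H1, H2A, H2B and H4 families and of H2AFX are shown because they mark the transcripts whose ends differ from those of other mRNAs. The stem-loop is in capitals with 5 bases on each side in lower case, 5′ to 3′ on the strand of the gene.
HIST1H1C: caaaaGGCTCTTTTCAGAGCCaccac
HIST1H2AC: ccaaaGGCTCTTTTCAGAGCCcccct
HIST2H2AA3: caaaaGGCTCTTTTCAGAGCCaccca
HIST2H2AC: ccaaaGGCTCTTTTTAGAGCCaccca
HIST1H2BK: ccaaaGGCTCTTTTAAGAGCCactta
HIST1H2BD: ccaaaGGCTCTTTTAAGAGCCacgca
HIST1H4C: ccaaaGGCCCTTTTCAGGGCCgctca
HIST2H4A: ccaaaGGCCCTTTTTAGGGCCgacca
H2AFX: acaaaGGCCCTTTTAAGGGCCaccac

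The form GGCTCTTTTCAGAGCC was shared by 11 of the 25 genes, among them linker, H2A, H2B and H3 genes. Stem-loops that start with GGCCC were those of all 7 H4 genes and of H2AFX. In HIST1H1C the stem-loop lies on the minus strand at chr6:26055972-26055987, starting at base 31 after the last coding codon, and the annotation ends 4 bases past it. In H2AFX it lies on the minus strand at chr11:118965608-118965623, starting at base 53 after the last coding codon, and the annotation goes on for 1024 bases. Of the 25 replication-dependent genes, 9 had an annotated end more than 100 bases past the stem-loop. Their mean counts per library had a median of 13.8 (range 5.33 to 123), and those of the 16 genes that end within 100 bases had a median of 9 (range 3.33 to 811). The ranges of both kinds overlapped.

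Counts on genes ranged from 5738340 to 10546786 reads per library in ASO_CTRL and from 3686828 to 6780016 in ASO_LINC. ASO_LINC replicate 3 had the fewest reads. Counts of ASO_LINC replicates 1 and 2 differed by a chi-square of 2.62 per degree of freedom, and each of them differed from replicate 3 by 13.9 and 14.8. The pairs of ASO_CTRL replicates differed by 7.68 to 13.1, so that ASO_LINC replicates 1 and 2 were the closest pair of either group. For named histone names whose sign or call changed without ASO_LINC replicate 3, the result without it is given. Simple epithelial keratins were abundant. The summed level of KRT7, KRT8, KRT18 and KRT19 was 7480 and 7103 CPM (counts scaled to a common library size) in ASO_LINC replicates 1 and 2, whereas it was 12434 CPM in replicate 3 and from 11696 to 12642 CPM in ASO_CTRL. Of 6 squamous markers, the table listed 2, KRT5 at 103 CPM in ASO_CTRL and KRT6A, too low to be tested. The squamous markers TP63, KRT14, DSG3 and SOX2 and the simple epithelial marker EPCAM were not listed and so not analysed here. All 5 mesothelial markers were measured, with a summed level from 778 to 973 CPM in ASO_CTRL and from 253 to 371 CPM in ASO_LINC. CALB2 held most of this sum in ASO_CTRL, with 516 to 698 CPM. Of the 6 fibroblast markers 3 were listed, with a summed level from 388 to 486 CPM in ASO_CTRL and from 220 to 248 CPM in ASO_LINC. COL1A1 held most of the fibroblast sum in ASO_CTRL, with 251 to 367 CPM. In these lists CALB2 (log2 fold change −1.97), LRRN4 (−1.58), COL1A1 (−1.36) and COL3A1 (−1.58) were called lower. UPK3B (−0.92), WT1 (−0.32), THY1 (−0.17) and MSLN (0.06) were not called, and the last 3 overlapped between the groups. The part of these markers in the histone results was not tested. Immune markers were near 0, with 1 of 4 listed at 0.735 to 2.17 CPM, and none of 3 endothelial markers was listed.

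The reads fell unevenly on both classes of histone names. Over the 6 libraries 122598 reads were counted on the 17 replacement names and 14352 on the 29 replication-dependent names. HIST1H2BK alone held 33.9% of the latter, and together with HIST1H1C and HIST1H4C it held 72.8%. After the filter on low counts, 12 of 29 replication-dependent and 15 of 17 replacement names were tested, among them all 11 replacement coding genes. The 17 replication-dependent names that were not tested had from 0 to 32 reads in a library and 707 reads in total. Of the replacement names, H1FX-AS1 with 36 reads and H3F3AP5 with 35 reads in total were not tested. These names were fitted only in the alternative without the filter.

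**Figure D1:**
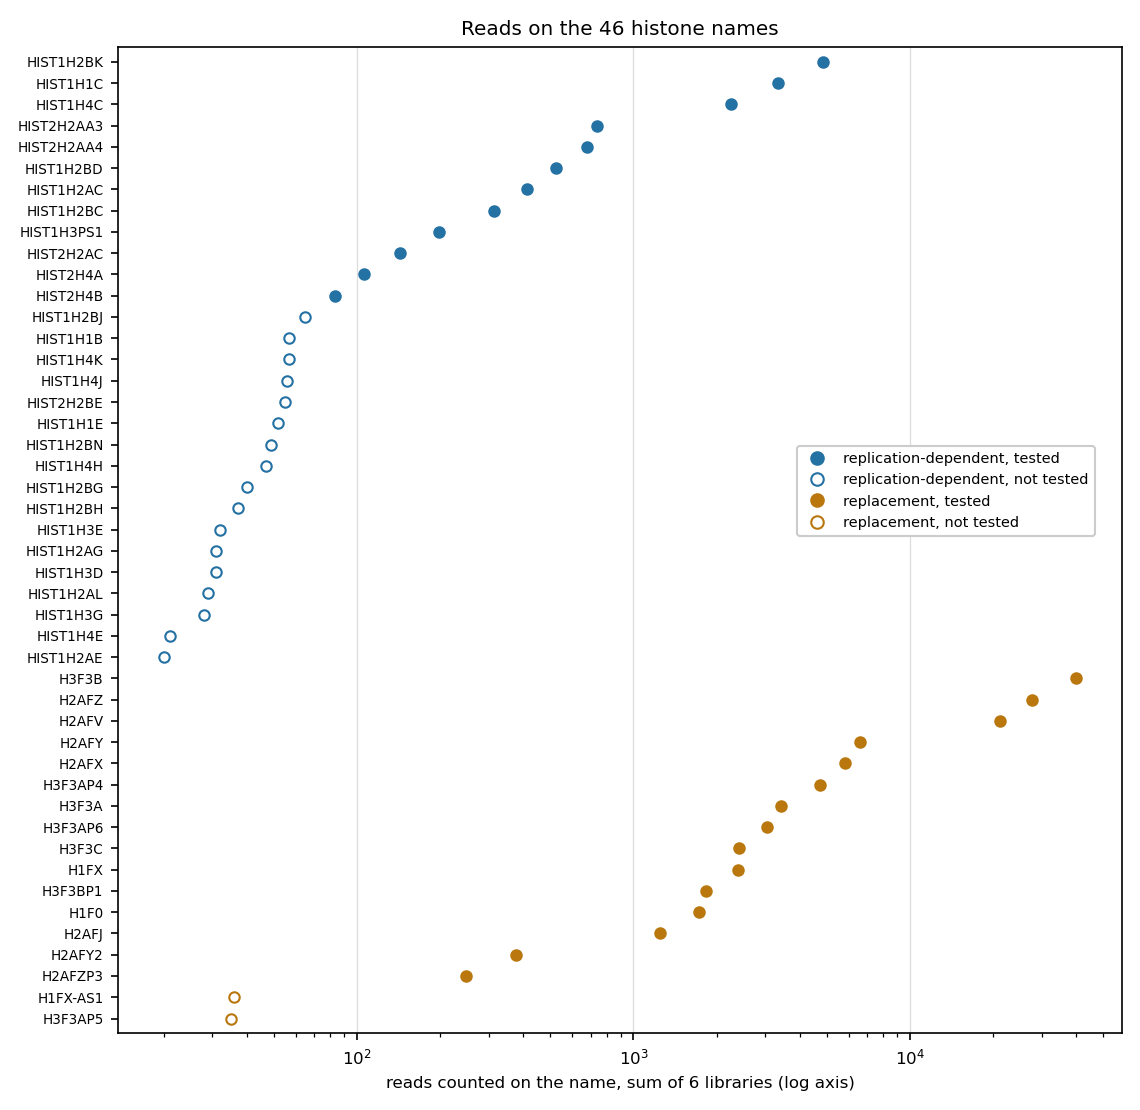
Reads counted on each of the 46 histone names, summed over the 6 libraries, on a log axis. Filled points are names tested after the filter on low counts, open points are names not tested, and colours separate replication-dependent from replacement names. Most replication-dependent names lie at the low end, and H3F3B, H2AFZ and H2AFV have the most reads.

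Per kilobase of transcript, the highest level in ASO_CTRL was that of H2AFZ (887 CPM per kb), followed by the pseudogene H3F3AP4 (339), H3F3B (325) and HIST1H2BK (272). Among coding replacement genes the lowest was H2AFY2 (4.85 CPM per kb). H1F0 was at 9.21 CPM per kb in ASO_CTRL and at 35.3 in ASO_LINC, whereas HIST1H1C was at 84.3 and 154 and H1FX at 29.5 and 56.

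In ASO_LINC the measured RNA levels of all tested linker histones were higher than in ASO_CTRL, from 1.82-fold for HIST1H1C to 3.81-fold for H1F0. That of the core variant H2AFX was lower, at 0.519 times the control level. The mRNAs of HIST1H1C and H2AFX can end at the stem-loop, so their values cover only what the dT-primed libraries took up. H1F0 was called in all 6 fits that left out 1 library, H1FX and HIST1H1C in 3 and H2AFX in 1. The other tested core histone coding genes were not called in either direction in edgeR, while DESeq2 also called H3F3A lower. To ask whether the measured histone RNA levels differed between ASO_LINC and ASO_CTRL, the groups were compared over all 14660 tested genes with the quasi-likelihood test of edgeR. Calls required a log2 fold change beyond 0.5 together with a p-value below 0.01 after Benjamini-Hochberg adjustment over all tested genes. Among the replication-dependent names, 1 of 12 was called higher and 0 were called lower. Among the replacement names, 2 of 15 were called higher and 3 lower. Over all tested genes 4.91% were called higher and 2.63% lower. At an unadjusted p-value below 0.05 in edgeR, 2 replication-dependent names were lower, HIST1H4C and HIST1H2BK, and DESeq2 and limma-voom called 0 lower as well. The 3 names called higher, H1F0, H1FX and HIST1H1C, were all 3 tested linker histone genes of both classes. Of the 19 tested coding core histone genes, 0 were called higher in edgeR, DESeq2 or limma-voom, with 3 higher at an unadjusted p-value below 0.05 in edgeR. H2AFX was the 1 called lower. The remaining names called lower were the pseudogenes H3F3AP4 and H3F3AP6.

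The median log2 fold change was 0.11 over the 12 replication-dependent names and −0.20 over the 15 replacement names, and −0.00 over all tested genes. Over coding genes alone it was 0.18 for 11 replication-dependent and −0.14 for 11 replacement genes. The 4 tested replacement pseudogenes, whose counts are uncertain, had a median of −0.62. All 3 ASO_LINC libraries lay above all 3 ASO_CTRL libraries for 3 replication-dependent and 3 replacement names, and below them for 1 and 7 names. Of these 7 replacement names, 4 were coding genes and 3 were pseudogenes. Over all tested genes 18.7% lay above and 17.3% below. The replication-dependent median moved with single libraries of both groups. It was −0.02, 0.00 and 0.24 without ASO_LINC replicate 3, 1 and 2, and 0.30, 0.26 and 0.14 without ASO_CTRL replicate 3, 2 and 1. It was 0.25 without the filter on low counts. The replacement median was negative in each of these fits, from −0.30 without ASO_CTRL replicate 1 to −0.19 without ASO_LINC replicate 3. Summed over all names, the replication-dependent class stood at 345, 323 and 386 CPM in ASO_CTRL and at 367, 361 and 341 CPM in ASO_LINC, and the replacement class at 3002, 3130 and 3187 against 2967, 3077 and 2858 CPM. The groups overlapped in both sums. In bulk RNA, fewer cells of a type and less RNA per cell cannot be told apart.

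**Figure D2:**
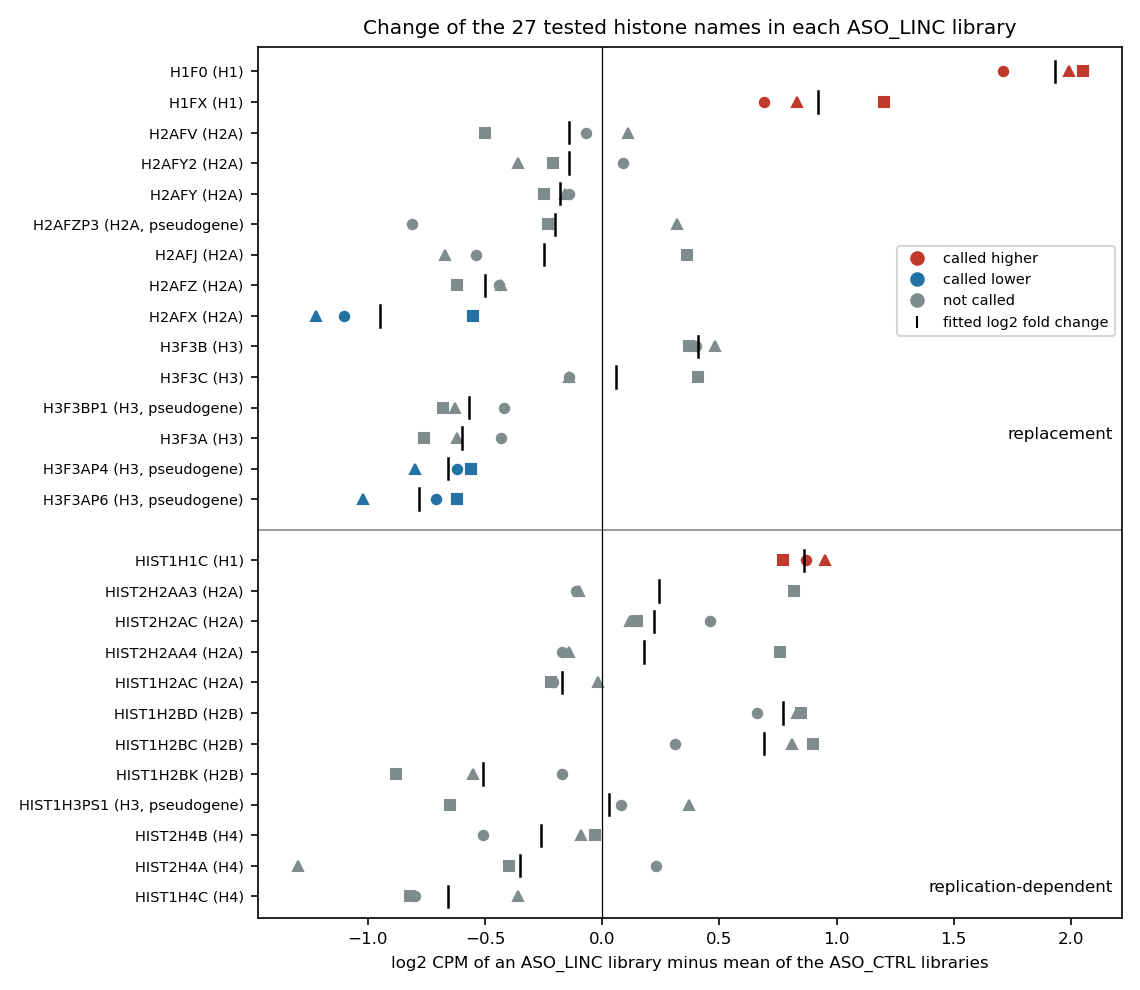
Change of the 27 tested histone names in each ASO_LINC library, as log2 CPM minus the mean of the ASO_CTRL libraries. Circles, triangles and squares are replicates 1, 2 and 3, the vertical bar is the fitted log2 fold change and colours show the calls. The linker histones H1F0, H1FX and HIST1H1C lie to the right of 0 in all 3 libraries, and H2AFX and the H3F3A pseudogenes lie to the left.

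H1F0 encodes H1.0, the linker variant known from cells that have left the cell cycle and differentiated. It lies in 1 exon on chromosome 22 of GRCh37, on the plus strand (chr22:38201236-38203439). Its levels were 19.0, 20.1 and 21.8 CPM in ASO_CTRL and 67.0, 81.1 and 85.1 CPM in ASO_LINC, on counts between 117 and 474. Every ASO_LINC library was above every ASO_CTRL library, and the gap between the groups was larger than the spread within either. Mean levels were 20.3 ± 1.39 and 77.8 ± 9.51 CPM (SD, n = 3), a 3.81-fold rise with a log2 fold change of 1.93 (standard error 0.15, edgeR adjusted p = 2.93e-05). H1F0 remained called in all 6 fits that left out 1 library.

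H1FX encodes the linker variant H1.10, and lies in 1 exon on the minus strand of chromosome 3 (chr3:129033614-129035129). Its levels were 44.6, 47.0 and 42.5 CPM in ASO_CTRL and 72, 79.7 and 103 CPM in ASO_LINC, so the groups did not overlap and replicate 3 was the highest. The log2 fold change was 0.92 (standard error 0.16, edgeR adjusted p = 0.00317), a 1.89-fold rise. The call was lost without ASO_CTRL replicate 1 (adjusted p = 0.0179), replicate 2 (0.0144) or replicate 3 (0.0262). H1FX shares its position with H1FX-AS1 on the opposite strand. The strand setting of the counting is not given in the sources used here, so reads of both cannot be told apart, although H1FX-AS1 had at most 10 reads in a library.

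HIST1H1C encodes H1.2, the most widely expressed replication-dependent linker histone, and ends in the stem-loop shown above. It lies in 1 exon on the minus strand of chromosome 6 (chr6:26055968-26056698). Its levels were 57.6, 58.2 and 69.2 CPM in ASO_CTRL and 113, 119 and 105 CPM in ASO_LINC. The groups did not overlap, and the spread within each was small beside the gap between them. The log2 fold change was 0.86 (standard error 0.13, edgeR adjusted p = 0.00182), a 1.82-fold rise. Leaving out 1 library ended the call in 3 cases, without ASO_CTRL replicate 1 (adjusted p = 0.0135), without ASO_CTRL replicate 2 (0.0125) and without ASO_LINC replicate 1 (0.0121). The other replication-dependent linker genes, HIST1H1B and HIST1H1E, had from 2 to 21 reads in a library and were not tested. Summed over the 5 linker coding genes, the level was 124, 127 and 135 CPM in ASO_CTRL and 256, 282 and 298 CPM in ASO_LINC.

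The promoters of H1FX, HIST1H1C and H2AFX are shown because these called genes moved in opposite directions. H1F0, HIST1H4C and H3F3C were not in the promoter table. The sequences cover 250 bases before and 50 after the start in RefSeq (GRCh38.p14). Capitals mark the TATA box letters TATAAA, the pentamer CCAAT and the octamer ATTTGCAT, searched on both strands, where a motif may overlap its own reverse complement. H1FX is at chr3:129316237-129316536, H2AFX at chr11:119095416-119095715 and HIST1H1C at chr6:26056421-26056720, all on the minus strand.
H1FX: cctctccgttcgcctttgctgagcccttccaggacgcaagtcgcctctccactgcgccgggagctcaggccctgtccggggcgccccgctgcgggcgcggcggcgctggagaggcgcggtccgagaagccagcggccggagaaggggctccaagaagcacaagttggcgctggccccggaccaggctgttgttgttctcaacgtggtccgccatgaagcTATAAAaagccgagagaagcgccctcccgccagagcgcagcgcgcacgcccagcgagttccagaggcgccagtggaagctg
HIST1H1C: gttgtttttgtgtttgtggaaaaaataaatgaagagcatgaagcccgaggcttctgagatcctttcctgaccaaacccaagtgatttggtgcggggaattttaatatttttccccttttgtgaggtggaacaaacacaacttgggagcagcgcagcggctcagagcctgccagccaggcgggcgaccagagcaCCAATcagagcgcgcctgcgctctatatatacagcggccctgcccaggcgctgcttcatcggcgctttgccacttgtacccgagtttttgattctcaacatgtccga
H2AFX: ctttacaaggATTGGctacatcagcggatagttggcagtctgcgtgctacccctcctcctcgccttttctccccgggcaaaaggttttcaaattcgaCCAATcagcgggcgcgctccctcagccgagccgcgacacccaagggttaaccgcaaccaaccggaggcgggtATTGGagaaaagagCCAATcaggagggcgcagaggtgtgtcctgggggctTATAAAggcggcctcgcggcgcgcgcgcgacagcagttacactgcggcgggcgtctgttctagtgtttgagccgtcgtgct

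H1FX held 1 TATAAA and no CCAAT, HIST1H1C held 1 CCAAT and no TATAAA, and H2AFX held 1 TATAAA and 4 CCAAT. Over the promoters of all 27305 genes, 12% held TATAAA, 35.7% CCAAT and 1.8% the octamer. Of 25 replication-dependent promoters in the same table, 56% held TATAAA, 76% CCAAT and 40% the octamer. Of 9 replacement promoters these shares were 44.4%, 66.7% and 11.1%. These are matches of letters, and factor binding was not analysed here.

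All 6 replacement coding genes of the H2A family had negative log2 fold changes, with a median of −0.22, and 1 of them was called. H2AFX encodes H2A.X, the variant that is phosphorylated around DNA breaks. Its mRNA is known to end either at the stem-loop shown above or at a poly(A) tail. The dT-primed reads on H2AFX therefore may not measure all of its mRNA. It lies in 1 exon on the minus strand of chromosome 11 (chr11:118964584-118966175). Its levels were 170, 223 and 166 CPM in ASO_CTRL and 86.3, 78.9 and 126 CPM in ASO_LINC. The groups did not overlap, and ASO_CTRL replicate 2 and ASO_LINC replicate 3 were the highest of their groups. The log2 fold change was −0.95 (standard error 0.19, edgeR adjusted p = 0.0076). The call held without ASO_LINC replicate 3 (log2 fold change −1.17, adjusted p = 0.000143). It was lost without ASO_CTRL replicate 1 (adjusted p = 0.0206), replicate 2 (0.0363) or replicate 3 (0.0239), and without ASO_LINC replicate 1 (0.0441) or replicate 2 (0.0306).

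H2AFZ encodes H2A.Z.1, a variant found at promoters and enhancers, and had the second most reads of the histone names. Its levels were 789, 702 and 819 CPM in ASO_CTRL and 566, 570 and 500 CPM in ASO_LINC. The groups did not overlap, but the log2 fold change of −0.50 (standard error 0.12, edgeR adjusted p = 0.0172) was not called. H2AFV, which encodes the paralog H2A.Z.2, was at 542, 471 and 595 CPM in ASO_CTRL and 510, 576 and 377 CPM in ASO_LINC, and the groups overlapped. Its log2 fold change was −0.14 (standard error 0.16, edgeR adjusted p = 0.61) and 0.02 without ASO_LINC replicate 3.

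H2AFY encodes macroH2A1, a variant with a large additional domain that is known from silent chromatin. Its levels were 166, 183 and 169 CPM in ASO_CTRL and 157, 154 and 145 CPM in ASO_LINC. They did not overlap, but the difference was small, with a log2 fold change of −0.18 (standard error 0.12, edgeR adjusted p = 0.316). H2AFY2, which encodes macroH2A2, showed a log2 fold change of −0.14 (standard error 0.21) at 9.83 ± 1.17 CPM in ASO_CTRL (SD, n = 3). H2AFJ encodes H2A.J, a variant known from senescent cells, and its log2 fold change was −0.25 (standard error 0.25). In this gene replicate 3 went against the other ASO_LINC libraries, with levels of 23.4, 21.2 and 43.6 CPM beside 29.9, 40.6 and 32.5 CPM in ASO_CTRL, and without it the log2 fold change was −0.61 (edgeR adjusted p = 0.012). The pseudogene H2AFZP3, within the UBAC2 gene on the opposite strand, showed a log2 fold change of −0.20 (standard error 0.30), and 0.08 without ASO_LINC replicate 1.

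**Figure D3:**
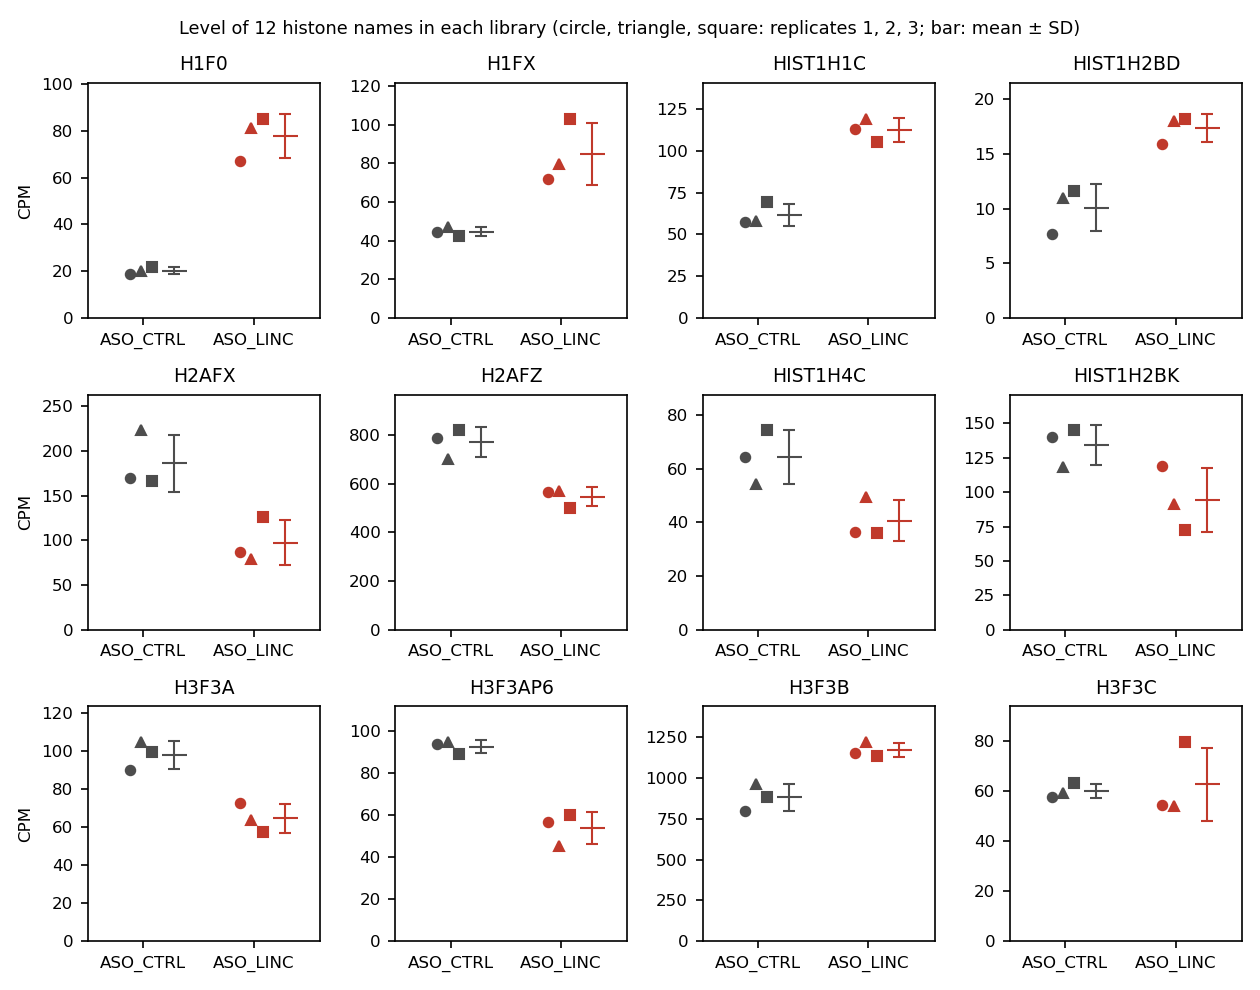
Levels of 12 histone names in each library in CPM, with axes starting at 0. Circles, triangles and squares are replicates 1, 2 and 3 of each group, and the bars are the mean ± SD of 3 libraries. H1F0, H1FX, HIST1H1C, HIST1H2BD and H3F3B are higher in all ASO_LINC libraries, whereas H2AFX, H2AFZ, HIST1H4C, H3F3A and H3F3AP6 are lower in all of them.

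The genes of the replacement histone H3.3 had log2 fold changes of opposite sign. H3F3A and H3F3B encode the same protein, which is deposited also outside S phase, at active genes and at telomeres. H3F3A, on the plus strand of chromosome 1 (chr1:226249552-226259720), was at 90.0, 105 and 99.4 CPM in ASO_CTRL and at 72.7, 63.8 and 57.7 CPM in ASO_LINC. H3F3B, on the minus strand of chromosome 17 (chr17:73772515-73781974), was at 796, 962 and 884 CPM in ASO_CTRL and at 1156, 1222 and 1138 CPM in ASO_LINC. In neither gene did the groups overlap. The log2 fold change of H3F3A was −0.60 (standard error 0.14, edgeR adjusted p = 0.0144), and that of H3F3B was 0.41 (standard error 0.12, edgeR adjusted p = 0.0342), so neither was called. H3F3A was called in DESeq2 (adjusted p = 0.00429), after a correction for GC content and length (0.00191) and without ASO_LINC replicate 3 (0.0062).

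The log2 ratio of H3F3B to H3F3A, of CPM within a library, was 3.14, 3.19 and 3.15 in ASO_CTRL and 3.99, 4.26 and 4.30 in ASO_LINC. It was thus higher by 1.02 in ASO_LINC, with no overlap. The log2 ratio of H2AFZ to H2AFV was 0.54, 0.58 and 0.46 against 0.15, −0.02 and 0.41. The log2 ratio of H1F0 to HIST1H1C was −1.60, −1.53 and −1.67 against −0.75, −0.55 and −0.31. These 3 pairs were chosen after their values were seen. In each the two-sided exact permutation test over libraries gave p = 0.1, and 0.1 after adjustment over the 3 pairs. This is the smallest value that 3 against 3 can give, and any pair without overlap reaches it. The test therefore adds nothing to the lack of overlap by which the pairs were seen, and no conclusion is drawn from it.

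H3F3AP4 and H3F3AP6 are processed pseudogenes of H3F3A. Reads of near-identical copies may have been divided among H3F3A, H3F3B, H3F3C and their pseudogenes by the alignment, so these counts are uncertain. H3F3AP4, on chromosome 2, was at 133, 148 and 137 CPM in ASO_CTRL and at 90.8, 79.9 and 94.1 CPM in ASO_LINC, with a log2 fold change of −0.66 (standard error 0.13, edgeR adjusted p = 0.00593). H3F3AP6, on chromosome 4 within MGST2 and on the opposite strand, was at 93.6, 94.8 and 89.1 CPM and at 56.6, 45.3 and 59.9 CPM, with a log2 fold change of −0.78 (standard error 0.14, edgeR adjusted p = 0.00438). The groups did not overlap in either, and both went with H3F3A in direction. H3F3AP4 shares its position with annotated long noncoding RNAs on the same strand, so reads of these cannot be told apart by strand. Both calls held without ASO_LINC replicate 3 and were lost without any other single library, with adjusted p-values from 0.0218 to 0.0354 for H3F3AP4 and from 0.0208 to 0.0236 for H3F3AP6. These libraries were ASO_CTRL replicates 1, 2 and 3 and ASO_LINC replicates 1 and 2.

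H3F3BP1, a processed pseudogene of H3F3B within DACH1, showed a log2 fold change of −0.57 (standard error 0.14, edgeR adjusted p = 0.0169) and thus the sign opposite to H3F3B. It was called without ASO_LINC replicate 3 (adjusted p = 0.0075). H3F3C, an intronless copy of H3F3B that encodes H3.5, showed a log2 fold change of 0.06 (standard error 0.17), and −0.14 without ASO_LINC replicate 3. Its levels were 57.5, 59.4 and 63.2 CPM in ASO_CTRL and 54.5, 54.2 and 79.7 CPM in ASO_LINC, and only replicate 3 was above the controls.

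The replication-dependent core histone genes had log2 fold changes of both signs, and 0 were called in edgeR, DESeq2 or limma-voom. At an unadjusted p-value below 0.05 in edgeR, 2 were higher and 2 lower. In the H2B family HIST1H2BD and HIST1H2BC, which encode canonical H2B, were higher in all ASO_LINC libraries. HIST1H2BD was at 7.68, 11 and 11.6 CPM in ASO_CTRL and at 15.9, 18.0 and 18.2 CPM in ASO_LINC, on 57 to 122 reads. The fitted difference was 0.77 on the log2 scale (standard error 0.20, edgeR adjusted p = 0.0235), and the gene was called after the correction for GC content and length (adjusted p = 0.0058). HIST1H2BC was at 5.12, 6.88 and 6.87 CPM and at 7.79, 11.1 and 11.9 CPM, with a log2 fold change of 0.69 (standard error 0.24, edgeR adjusted p = 0.0672).

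HIST1H2BK, a further H2B gene and the replication-dependent name with the most reads, was at 140, 118 and 145 CPM in ASO_CTRL and at 119, 91.7 and 72.7 CPM in ASO_LINC. The groups overlapped by 1 library, and the log2 fold change of −0.51 (standard error 0.18, edgeR adjusted p = 0.0729) was not called. Its annotated transcript ends 5 bases past the stem-loop, whereas the annotation of HIST1H2BD goes on for 12747 bases of the genome past its own. The annotated extent of HIST1H2BD also overlaps the processed pseudogene LARP1P1 on the same strand.

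All 3 tested H4 genes had negative log2 fold changes, with a median of −0.35. In edgeR, DESeq2 and limma-voom 0 were called, and 1 had an unadjusted p-value below 0.05 in edgeR. This was HIST1H4C, which was at 64.6, 54.2 and 74.4 CPM in ASO_CTRL and at 36.4, 49.6 and 36.1 CPM in ASO_LINC. The groups did not overlap, and the log2 fold change was −0.66 (standard error 0.17, edgeR adjusted p = 0.025). HIST1H4C lies inside the annotated extent of H2BC4 on the opposite strand, so its reads are uncertain without strand. HIST1H2BC and HIST1H2BG had no position in the annotation used, so H2BC4 may be a histone name of this report. The same limit would then apply to that name. HIST2H4A and HIST2H4B, which are near-identical copies, had log2 fold changes of −0.35 and −0.26 on 6 to 24 reads per library.

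The 4 tested H2A genes of the clusters overlapped between the groups, and 0 had an unadjusted p-value below 0.05 in edgeR or were called by any of the 3 tools. HIST2H2AA3 and HIST2H2AA4, near-identical copies whose reads may have been divided between them, were at 17.2, 16.3 and 18.8 CPM and at 14.4, 18.1 and 16.9 CPM in ASO_CTRL. In ASO_LINC they were at 16.2, 16.3 and 30.9 CPM and at 14.5, 14.9 and 27.9 CPM, so that replicate 3 alone stood above the controls. Their log2 fold changes were 0.24 and 0.18 with this library and −0.11 and −0.16 without it. HIST1H2AC (log2 fold change −0.17) and HIST2H2AC (0.22) were not called either, nor was the pseudogene HIST1H3PS1 (0.03). No H3 coding gene of the clusters passed the filter.

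Among the replication-dependent names that did not pass the filter, HIST1H2AG and HIST1H2BG were chosen after their values were seen, as those with the smallest adjusted p-values in a fit without the filter. HIST1H2AG had 7, 5 and 17 reads in ASO_CTRL and 2, 0 and 0 reads in ASO_LINC (edgeR adjusted p = 0.0322 without the filter). HIST1H2BG had 3, 2 and 6 reads in ASO_CTRL and 13, 7 and 9 reads in ASO_LINC (edgeR adjusted p = 0.0251 without the filter). Neither was called. The remaining 15 had adjusted p-values from 0.181 upwards in that fit.

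Genes that regulate, process or place histones were counted beside the shares of all tested genes, of which 4.91% were called higher and 2.63% lower. At an unadjusted p-value below 0.05 in edgeR, 2506 of the 14660 genes were higher and 2246 lower. Of 28 factors of histone mRNA transcription and 3′ end processing, 0 were called higher in edgeR, DESeq2 or limma-voom, with 2 higher at an unadjusted p-value below 0.05 in edgeR, and 1 (3.57%) was called lower by each tool. Their median log2 fold change was 0.03. SLBP, the protein that binds the stem-loop, was at 182, 177 and 209 CPM in ASO_CTRL and at 230, 216 and 165 CPM in ASO_LINC, with a log2 fold change of 0.11 (standard error 0.15, edgeR adjusted p = 0.656). ASO_LINC replicates 1 and 2 lay above all controls and replicate 3 below them. Leaving out the latter gave 0.24 on the log2 scale (edgeR adjusted p = 0.118). NPAT, the activator of the histone clusters, showed a log2 fold change of −0.11 (standard error 0.26, edgeR adjusted p = 0.803) and 0.09 without ASO_LINC replicate 3. The groups overlapped in both genes.

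The factor called lower was MIF4GD, which encodes a partner of SLBP known to link histone mRNAs to translation. It was at 45.5, 58.0 and 49.7 CPM in ASO_CTRL and at 16.6, 19.5 and 24.9 CPM in ASO_LINC. The groups did not overlap, and the log2 fold change was −1.34 (standard error 0.18, edgeR adjusted p = 0.00075). MIF4GD remained called in all 6 fits that left out 1 library.

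Of 34 histone chaperones and importers, 0 were called in edgeR, with a median log2 fold change of 0.11. At an unadjusted p-value below 0.05, 4 were higher and 5 lower. DESeq2 and limma-voom each called 1 lower, IPO4, an importer of histones (edgeR log2 fold change −1.13, standard error 0.25, adjusted p = 0.0119), which was named after its values were seen. Of 36 S phase genes, which mark the phase in which the clusters are expressed, 0 were called in edgeR, 28 had a negative log2 fold change and the median was −0.20. At an unadjusted p-value below 0.05, 12 were lower and 1 was higher. DESeq2 called 1 lower, CDC6, a replication licensing factor named after its values were seen (edgeR log2 fold change −0.63, standard error 0.15, adjusted p = 0.0162), and limma-voom called 0. All ASO_LINC libraries lay below all ASO_CTRL libraries for 11 of the 36 and above them for 2, beside 17.3% below and 18.7% above over all tested genes. The summed level of these genes was 1958, 2067 and 2029 CPM in ASO_CTRL and 1671, 1687 and 1813 CPM in ASO_LINC, and its part in the histone results was not tested. With an adjusted p-value below 0.05 and no bound on the fold change, 6 S phase genes, 2 chaperones and 12 of the 27 tested histone names passed, and over all genes 2646 did.

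**Figure D4:**
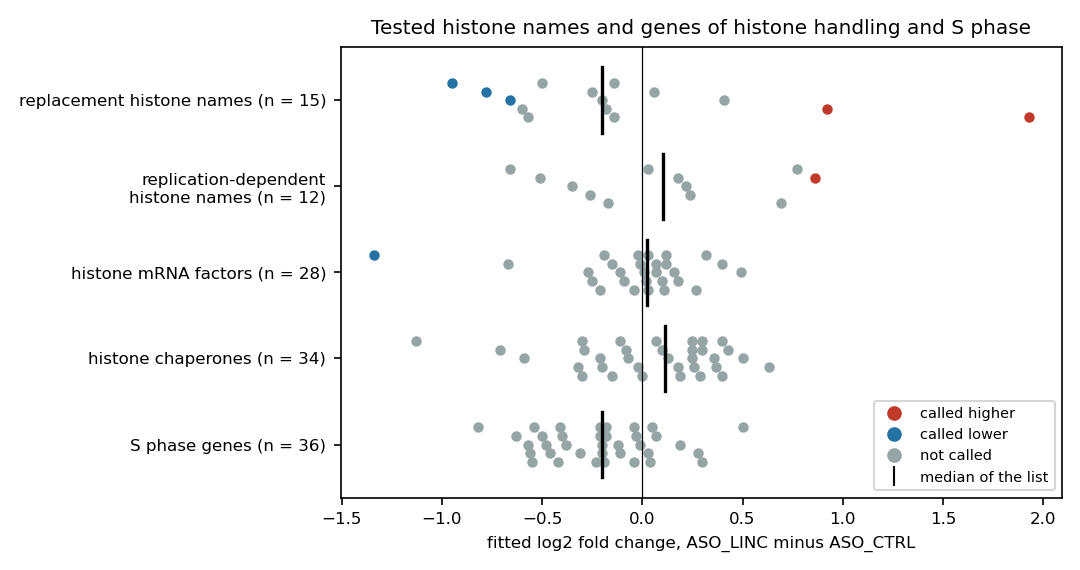
Fitted log2 fold changes of the tested histone names of both classes and of the genes for histone mRNA, histone chaperones and S phase. Each point is a gene, coloured by its call, and the black bar is the median of the list. The S phase genes and replacement names have a median of −0.20, and the only gene called among the 3 gene lists is MIF4GD, at −1.34.

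RNAs that normally lack a poly(A) tail were counted for what the dT-primed libraries took up beside polyadenylated mRNA. Of 24 such RNAs 7 were in the table and 6 were tested, with a median log2 fold change of 0.10. Nearly all reads of the list were on MALAT1, with 17842, 8556 and 19234 of 18000, 8629 and 19406 reads in ASO_CTRL. MALAT1, named after its values were seen, overlapped between the groups (log2 fold change −0.23, standard error 0.22, edgeR adjusted p = 0.502). The summed reads of the list thus do not measure such uptake in general. TERC, the RNA of telomerase, was called higher. It had 25, 15 and 17 reads in ASO_CTRL and 44, 40 and 30 reads in ASO_LINC, with a log2 fold change of 1.52 (standard error 0.29, edgeR adjusted p = 0.00607). The call was lost without ASO_CTRL replicate 2 (adjusted p = 0.0217) or replicate 3 (0.036) and without ASO_LINC replicate 1 (0.022) or replicate 2 (0.0183). RN7SK and RN7SL1, named after their values were seen, did not overlap between the groups and were not called. RN7SK had 5, 4 and 8 reads in ASO_CTRL and 11, 15 and 12 reads in ASO_LINC, with a log2 fold change of 1.70 (standard error 0.40, edgeR adjusted p = 0.0151). RN7SL1 had 69, 29 and 86 reads and 27, 26 and 15 reads, with a log2 fold change of −0.86 (standard error 0.27, edgeR adjusted p = 0.0499). Members of the list thus had changes of both signs. Both RNAs have near-identical copies in the genome, so their reads are uncertain. The part of such uptake in the levels of replication-dependent genes was not tested.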

How the data were processed

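Total RNA of H226 cells was extracted with a Maxwell kit and reverse transcribed with dT oligonucleotides, per the labels. The authors aligned single reads to hg19 with STAR and deposited raw counts of reads per gene name, without normalization. Counting tool, annotation and strand setting are not given in the sources used here. The sequenced cells are H226 in the labels and in the study's results, but BJ in its methods paragraph on RNA-seq. From 24.8% to 28.1% of each library's reads were on no gene (4 total rows), and these were left out.

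The deposited counts were fitted with edgeR 4.0.16 in R 4.3.3 (filterByExpr, TMM, quasi-likelihood F-test, no block, Benjamini-Hochberg over 14660 genes). The common biological coefficient of variation was 0.159. Standard errors are the log2 fold change divided by the square root of F. CPM are TMM-scaled, and changes of single libraries use a prior count of 2. DESeq2 1.42.0 and limma-voom 3.58.1 were alternatives, beside other scalings and filters, an adjusted p-value of 0.05, a replicate block, a correction for GC content and length (splines with 5 degrees of freedom) and leaving out each library. Exact permutation tests used scipy 1.17.1. Nothing in the labels says whether replicates were separate cultures. The study states in general that its experiments used biological replicates unless a legend says otherwise, without naming these libraries. The p-values measure the spread between these libraries, which may in part be technical. In each pair of replicates the counts differed by more than sampling noise (chi-square per degree of freedom from 2.62 to 14.8), so each library was 1 replicate.

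Positions and stem-loops came from GENCODE v44 lifted to GRCh37, in which, with RefSeq synonyms, 44 of the 46 names were found. HIST1H2BC and HIST1H2BG were not placed, so their overlaps with other genes, histone names included, were not checked. Promoters came from RefSeq (GRCh38.p14). The members and gene lists were chosen with earlier results of these data known. Named are every tested replacement name, every tested replication-dependent name that was called, had an adjusted p-value below 0.05 or a mean of at least 50 counts, SLBP, NPAT, and in each accompanying list the called members, up to the 3 with the smallest p-values per direction. Other names were chosen after their values were seen.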

Additional observations from a re-analysis of the deposited data

Results flagged for a closer look

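Reads that were counted on no gene are outside the comparisons above. In them, the share of reads that were not aligned was from 13.2% to 14.1% in ASO_CTRL and from 15.8% to 16.4% in ASO_LINC, so the lowest ASO_LINC library (15.8%) was above the highest ASO_CTRL library (14.1%). The share of reads of low alignment quality was likewise at least 2.17% in every ASO_LINC library and at most 2.15% in every ASO_CTRL library. Both differences were not tested, nor was their part in the histone results.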

How the results depend on the processing

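Over the 23 named histone names and the alternatives, 348 values kept their direction and their side of the threshold, 25 were no longer called, 11 were newly called and 5 changed sign. The values that changed sign came from fits without 1 library and from genes that were not called. Over such fits H2AFZP3 went from −0.59 to 0.08, changing sign without ASO_LINC replicate 1. Without ASO_LINC replicate 3 the sign changed in H2AFV (range −0.27 to 0.02), H3F3C (−0.14 to 0.15), HIST2H2AA3 (−0.11 to 0.40), HIST2H2AA4 (−0.16 to 0.35) and, beside the histones, NPAT (−0.28 to 0.09). Leaving out 1 library gave from 359 (without ASO_CTRL replicate 3) to 2616 called genes (without ASO_LINC replicate 3) beside 1106. The replication-dependent names called higher went from 0 to 1, the replacement names called higher from 1 to 2 and those called lower from 0 to 5. The medians went from −0.02 to 0.30 for the replication-dependent and from −0.30 to −0.19 for the replacement names. The replication-dependent median was 0.25 without a filter and 0.19 with at least 10 counts in every library. An adjusted p-value of 0.05 gave 2465 called genes, with 2 replication-dependent names higher, 1 lower and 5 replacement names lower. Replicate numbers did not pair the libraries (correlations of the deviations 0.059, −0.149 and −0.18), and the fit with a replicate block called 656 genes and 0 replacement names lower. The correction for GC content and length called 1696 genes and 2 replication-dependent names higher, and with the replicate block again 2. The cause of these differences was not tested. The 17 replication-dependent names that did not pass the filter were limited by low counts. The parts of depth and of dT priming in these low counts were not tested.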
